A study of Mus musculus with 28 samples.

Results

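The genes described here are the chemokines and chemokine receptors in the ventricular myocardium of the mouse. They were chosen by name alone: symbols that begin with Ccl, Cxcl, Ccr, Cxcr or Ackr and a number, together with Xcl1, Xcr1, Cx3cl1 and Cx3cr1. The rule takes 64 of the 45513 gene rows, namely 39 ligand genes, 23 receptor genes and 2 Ccl19 pseudogenes. Cxcl11, counted here with the ligand genes, is typed as a polymorphic pseudogene in the annotation (GENCODE M21). Ventricles of 28 adult male C57BL/6 mice were profiled by RNA sequencing, 1 library per mouse. Chronic kidney disease (CKD) was induced at 6 weeks of age by removal of most kidney tissue in a two-stage 5/6 nephrectomy, and controls had a sham operation. On day 7 each mouse received by gavage either a single dose of Oxalobacter formigenes (Oxf), a gut bacterium that degrades oxalate, or 200 µl of the culture medium alone (vehicle). All mice, controls included, ate a diet with 1% hydroxyproline, a precursor of oxalate, and 0.5% calcium, so no group was on a plain diet. The groups are sham-vehicle (10 mice), CKD-vehicle (6 mice), sham-Oxf (5 mice) and CKD-Oxf (7 mice). The design text describes 10 mice per group, and the other mice were not analysed here. Hearts came from mice perfused with buffered saline, which washes blood from the vessels. The series title names colonization, CKD and cardiac remodelling, and the comparison of the 4 groups asks how these genes differed with surgery and with gavage.

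Chemokines are small secreted proteins that guide migrating cells along concentration gradients through G protein-coupled receptors. Homeostatic chemokines such as Cxcl12, Ccl19 and Ccl21 are made constantly and place lymphocytes and progenitors in tissues, while inflammatory chemokines such as Ccl2 and Cxcl10 are induced by cytokines and recruit monocytes, neutrophils or T cells. Atypical receptors (Ackr genes) bind chemokines without classical G protein signalling and remove them. In the heart, fibroblasts, mural and endothelial cells, resident macrophages and incoming leukocytes are known sources of these transcripts, and a bulk library cannot tell fewer cells of a type from less RNA per cell.

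Library totals ran from 19.8 to 65.4 M counts (M for mega), with a median of 38.1 M. The cardiomyocyte list (Myh6, Ttn and 5 others) summed to 46117 to 94526 CPM (counts scaled to the usual library size after edgeR's TMM factors) so the defining markers of the labelled tissue were abundant. The atrial list (Myl7, Sln, Nppa, Myl4, Bmp10) summed to 62.8 to 2775 CPM and the adipose list (Adipoq and 4 others) to 0 to 218 CPM, so these 2 lists varied widely between hearts. Sham-Oxf replicate 1 stood apart. It listed 15879 genes with a count, against 27128 to 33995 in the other 27 libraries, and 732 genes at 1 to 9 counts, against 6098 to 10656. Of the members, 27 had at least 10 counts there, 0 had 1 to 9 counts and 37 had none. Ccl2, Ccl11, Ccl19, Ccl24, Ccr2 and Cx3cr1 were at 0 in this library and at 10 counts or more in each of the other 27. Of 17606 genes at 10 counts or more in all the others, 18.4% were at 0 there. A 0 in this library is therefore not read as absence. CKD-Oxf replicate 4 had the next lowest number of genes at 1 to 9 counts, 6098.

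Of the 64 members, 50 were detected in heart, meaning at least 10 counts in at least 5 of the 28 libraries. These 50 were also the members that passed the filter of the group comparison, which used group sizes and no direction. At least 10 counts in every library were found for 23 members, and a further 6 missed this limit in a single library. By role, 14 of 18 homeostatic ligand genes, 10 of 13 inflammatory CC ligands and 3 of 5 neutrophil-attracting CXC ligands were detected. So were all 3 interferon-induced CXC ligand genes (Cxcl9, Cxcl10, Cxcl11), 7 of 11 CC receptors and 7 of 8 CXC, CX3C and XC receptors. All 4 atypical receptors (Ackr1, Ackr2, Ackr3, Ackr4) and both Ccl19 pseudogenes were detected as well. The homeostatic list was drawn widely and also holds Cxcl16, Cx3cl1, Ccl17, Ccl20, Ccl22 and Xcl1. A place in it does not show that a gene is made constantly.

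The 14 members below the limit were Ccl1, Ccl4, Ccl17, Ccl20, Ccl22, Ccl26, Cxcl3, Cxcl15, Xcl1, Ccr1l1, Ccr3, Ccr4, Ccr8 and Cxcr1. Ccl20, the ligand of Ccr6, had no count in any library, which allows a level of up to 0.0459 to 0.152 CPM depending on the depth of the library (3 counts of its total, for counting error only). Ccl22 and Ccr4, a ligand and its receptor on regulatory and type 2 helper T cells, each reached 10 counts in 3 libraries, with highest counts of 15 and 14. Ccl17, the other Ccr4 ligand, had at most 5 counts. Ccl4, an inflammatory CC chemokine, and Ccr8 had at most 8 counts, and Xcl1, made by T and natural killer cells, at most 6. Cxcr1 and Ccr3, receptors of neutrophils and eosinophils, had at most 2 counts in any heart. At this depth such members were not detectable or too low to compare, which does not show that they are absent.

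Per kilobase of exon, which allows genes to be compared, Cxcl12 was the highest member with a mean of 21.3 CPM per kb (range 10.2 to 32.7 over 28 libraries). Cxcl12 is the retention signal for Cxcr4-bearing cells and is known as a product of stromal and vascular cells. The Ccl21 genes followed, with 15.7, 11.2 and 8.55 CPM per kb for the Ccl21b copy ENSMUSG00000095675, Ccl21a and the Ccl21b copy ENSMUSG00000094065. These ligands of Ccr7 are products of lymphatic endothelium. Ackr3, the scavenger of Cxcl12, stood at 8.17 CPM per kb (5.08 to 14.4). The pseudogenes Ccl19-ps3 and Ccl19-ps1 had 6.94 and 3.54 CPM per kb, above Ccl19 itself at 2.98. Cxcl16, the transmembrane ligand of Cxcr6, had 3.71 CPM per kb. The ranges of neighbours in this order overlapped throughout, and among tested genes of all kinds Cxcl12 lay at percentile 96.1 and Cxcl16 at percentile 72.2.

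The 6 Ccl21 and Ccl19 genes and pseudogenes together made 42.3% of the summed level of all members per kb. They lie within 1 stretch of chromosome 4 (GRCm38, 41903610 to 42773993), where each of these genes has copies of its own kind, and how reads that match several copies were counted is not given in the sources used here. The count ratio of Ccl21a to Ccl21b (ENSMUSG00000094065) stayed between 0.715 and 1.58 in all libraries, and that of the 2 Ccl21b copies between 1.05 and 1.40. The level of each single copy is therefore uncertain.

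**Figure D1:**
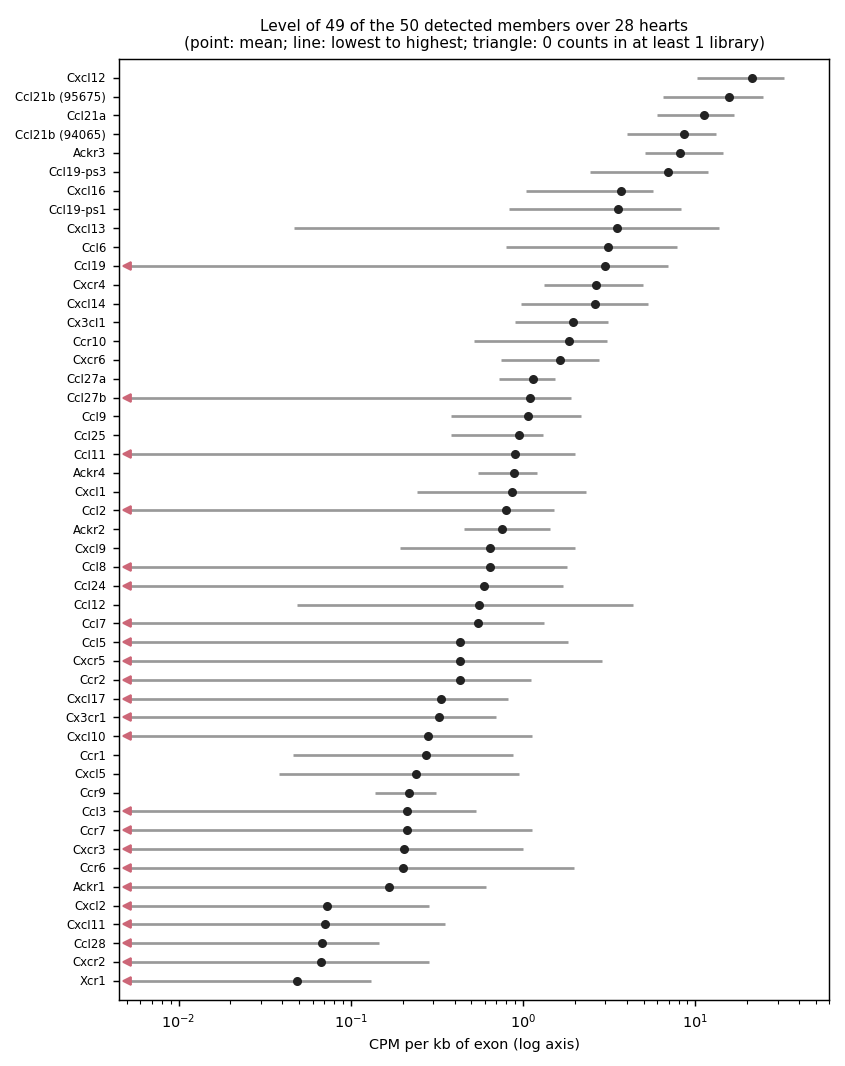
Mean level of 49 of the 50 detected members in CPM per kilobase of exon on a log axis, with lines from the lowest to the highest of 28 libraries and triangles where a library had 0 counts; digits after Ccl21b are the end of its gene identifier. Cxcl12 leads at 21.3 and Xcr1 closes at 0.0487 CPM per kb.

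The receptors were lower per kb than their main ligands in several pairs. Cxcr4 had 2.65 CPM per kb beside 21.3 for Cxcl12, Cxcr6 had 1.63 beside 3.71 for Cxcl16, and Ccr7 had 0.211 beside 11.2 for Ccl21a. Cx3cr1, a receptor of resident macrophages and monocytes, had 0.324 beside 1.95 for Cx3cl1. Ackr4, which clears Ccl19, Ccl21 and Ccl25, had 0.881 and thus lay above Ccr7. For Ccr10, the receptor of Ccl27 and Ccl28, the order was the other way, with 1.85 CPM per kb beside 1.14 for Ccl27a, 1.09 for Ccl27b and 0.0677 for Ccl28. These are levels of transcript per length, and they say nothing of protein. Exons of some members overlap those of other genes in the annotation: Ackr1 (Cadm3), Ackr4 (Acad11), Ccl25 (Elavl1), Ccl27a (Il11ra1), Cxcl10 (Art3), Cxcl16 (Zmynd15), Cxcr5 (Bcl9l), and likewise Ccr9, Cx3cr1 and Cxcl11. The use of strand in counting is not given in the sources used here, so reads of these partners could not be told apart.

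Group comparisons gave a single call. In edgeR's quasi-likelihood test, with p adjusted over all 24273 genes tested, Ackr3 was lower with Oxf when averaged over both surgeries, and this was 1 of 50 members, beside 2.81% of all genes called in that comparison (1.54% lower). No member passed in any of the other comparisons. The share of all genes called there was 0.00824% for CKD against sham under vehicle, 0.033% for Oxf against vehicle in CKD, and 0% for CKD against sham with Oxf, Oxf against vehicle in sham, the interaction and the averaged surgery effect. Members were thus called about as rarely as genes at large.

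At an unadjusted p under 0.05 the members' counts were likewise small. For CKD against sham under vehicle 0 members were higher, beside 2.09% of all genes, and 3 lower, beside 2.37%. For CKD against sham with Oxf 1 was higher, beside 3% of all genes, and 4 lower, beside 5.22%. For Oxf against vehicle in CKD 0 were higher, beside 6.89%, and 3 lower, beside 6.2%. For Oxf against vehicle in sham 1 was higher, beside 6.6%, and 3 lower, beside 5.98%. For the interaction 1 was positive, beside 1.48%, and 1 negative, beside 2.07%. For the averaged surgery effect 1 was higher, beside 5.17%, and 4 lower, beside 5.45%. For the averaged Oxf effect 2 were higher, beside 11.5%, and 5 lower, beside 11.5%. The median log2 fold change over the 50 members was -0.15 for averaged surgery, with 31 members below 0, and 0.00 for averaged Oxf, with 25 below 0; over all genes tested the medians were 0.00 and 0.00. The 4 pairwise comparisons share groups and are not independent.

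**Figure D2:**
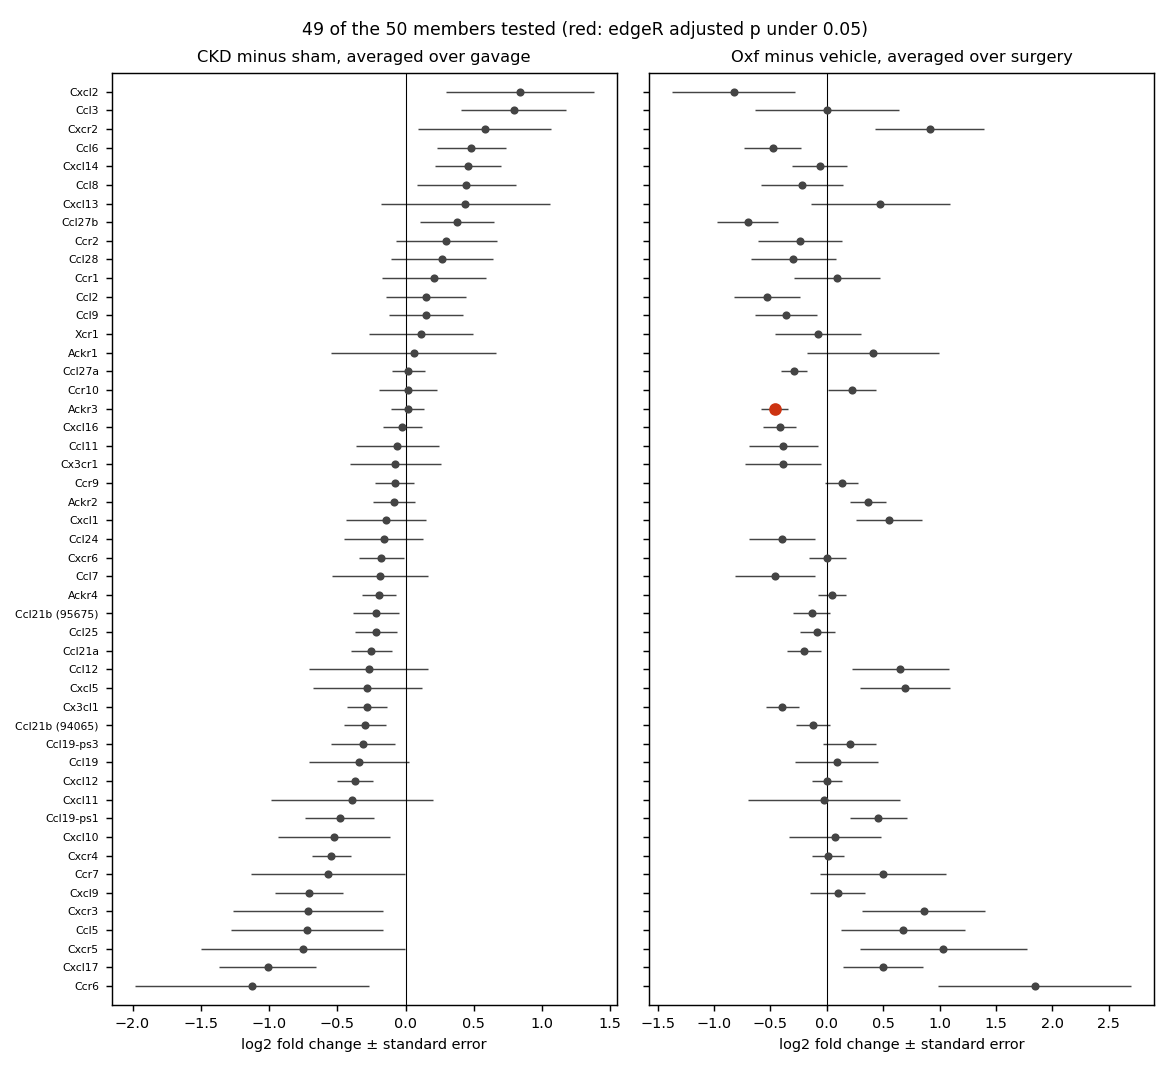
log2 fold changes with standard errors of 49 of the 50 members tested, for CKD minus sham averaged over gavage and Oxf minus vehicle averaged over surgery, in the order of the first. The only red point, past an edgeR adjusted p of 0.05, is Ackr3 at -0.46 in the Oxf panel.

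The Cxcl12 axis held both the highest member and the single call. Cxcl12 signals through Cxcr4, which keeps leukocytes and progenitors in place, and is taken up by Ackr3. The 300-base promoters of these 3 genes are shown because they form this axis, of which only Ackr3 was called. They run from 250 bases before to 50 bases after the RefSeq start (GRCm38.p6), 5′ to 3′ on the strand of the gene: Ackr3 at chr1:90203730-90204029 (+), Cxcr4 at chr1:128592250-128592549 (-) and Cxcl12 at chr6:117168285-117168584 (+). Capitals mark TATAAA on either strand.
Ackr3: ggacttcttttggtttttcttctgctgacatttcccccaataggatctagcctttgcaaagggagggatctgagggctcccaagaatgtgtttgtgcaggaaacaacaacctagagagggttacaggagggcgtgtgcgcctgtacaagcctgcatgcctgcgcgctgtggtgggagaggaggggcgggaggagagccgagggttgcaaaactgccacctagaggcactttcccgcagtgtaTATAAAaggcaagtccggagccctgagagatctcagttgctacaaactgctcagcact
Cxcr4: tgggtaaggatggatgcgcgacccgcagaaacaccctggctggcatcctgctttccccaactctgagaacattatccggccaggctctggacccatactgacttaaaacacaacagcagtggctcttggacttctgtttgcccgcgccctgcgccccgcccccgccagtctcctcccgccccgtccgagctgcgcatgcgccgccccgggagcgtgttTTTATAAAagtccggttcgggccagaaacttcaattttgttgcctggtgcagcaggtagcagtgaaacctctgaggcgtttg
Cxcl12: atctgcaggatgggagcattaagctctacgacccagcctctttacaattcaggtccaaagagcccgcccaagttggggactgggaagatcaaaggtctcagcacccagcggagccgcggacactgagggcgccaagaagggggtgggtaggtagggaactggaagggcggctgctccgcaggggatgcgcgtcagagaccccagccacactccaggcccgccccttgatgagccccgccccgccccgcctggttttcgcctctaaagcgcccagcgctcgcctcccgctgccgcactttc
TATAAA began at position -8 from the annotated start of Ackr3 and at -30 in Cxcr4, where the reverse match TTTATA at -32 overlaps it, and was not found in Cxcl12. It occurs in 13.6% of 32851 promoters of this length and in 28.3% of the 53 member promoters in the RefSeq table, which belong to 46 member genes, 15 of them with a match. The clock motifs E-box (CACGTG, in 7.15% of promoters) and D-box (TTATGNAA, in 3.38%) were searched on both strands and neither was found in these 3 windows. A match is a match of letters only, and the lack of one says nothing about a factor.

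Ackr3 (ENSMUSG00000044337, chromosome 1, GRCm38 90203980 to 90216751) ranged in sham-vehicle from 22.2 to 42.4 CPM with a median of 28.3. In CKD-vehicle the 6 hearts had 31.1, 48.3, 39.1, 30.7, 21.5 and 26.3 CPM (median 30.9). In sham-Oxf the 5 hearts had 24.0, 20.0, 27.9, 24.8 and 21.2 CPM, and in CKD-Oxf the range was 17.0 to 28.4 with a median of 22.0 CPM. The vehicle hearts were the more scattered, their upper values were not reached in any Oxf heart, and the lower part of their range overlapped the Oxf groups. Group means were 29.8 ± 7.23 (SD, n = 10), 32.8 ± 9.57 (n = 6), 23.6 ± 3.11 (n = 5) and 21.9 ± 3.86 CPM (n = 7), where the order is that in which the groups were introduced.

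Averaged over surgery, the log2 fold change of Ackr3 with Oxf was -0.46 ± 0.12 (standard error), with an edgeR adjusted p of 0.0422. It was -0.59 ± 0.17 in CKD (adjusted p = 0.20) and -0.34 ± 0.17 in sham (adjusted p = 0.42), and the interaction of -0.25 ± 0.24 gave an adjusted p of 1.00. The call was close to the threshold. Without sham-Oxf replicate 1 the fold change was -0.47 with an edgeR adjusted p of 0.0460, and without CKD-Oxf replicate 4 it was -0.51 with 0.0072. The call was lost in 16 of 28 fits that each left out a library, with adjusted p of 0.0508 to 0.0830 and fold changes from -0.48 to -0.40. The libraries concerned were sham-vehicle replicates 1, 4 and 7, CKD-vehicle replicates 1 to 4, sham-Oxf replicates 2, 4 and 5, and CKD-Oxf replicates 1, 2, 3, 5, 6 and 7. In CKD alone Ackr3 passed without CKD-Oxf replicate 4 (edgeR adjusted p = 0.0363), without that library and sham-Oxf replicate 1 together (0.0297), in DESeq2 (0.0471) and in limma voom (0.0158).

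Other measures shifted between the gavage groups together with Ackr3, not all of them past the adjusted threshold. The clock score, the mean log2 CPM of 10 clock-output genes such as Dbp and Per2 minus that of 5 genes such as Arntl and Npas2, spanned 0.84 to 3.97 in the sham-vehicle hearts and -0.21 to 2.08 in the CKD-vehicle hearts, against 3.10 to 4.22 in those of sham-Oxf mice and 2.19 to 3.88 in those of CKD-Oxf mice. All 10 clock-output genes had averaged Oxf fold changes above 0, and 7 passed the adjusted threshold, Dbp with 1.51 ± 0.24. Of the 5 others 4 were below 0 and passed, Arntl with -2.11 ± 0.30. In that comparison 2.81% of all genes were called. Fitted beside the clock score, the Ackr3 fold change was -0.03 (edgeR adjusted p = 0.99). The median sum of the 8 fibroblast markers was 1301, 1469, 911 and 1022 CPM in the same order of groups as the Ackr3 means. All 8 had averaged Oxf fold changes below 0 and Lum alone fell past the threshold (-0.85 ± 0.23). With the fibroblast score as a covariate Ackr3 had -0.28 (adjusted p = 0.43), and with the share of 7SL RNA, whose group medians were 10.1%, 14.04%, 2.70% and 7.73% in the same order, -0.22 (adjusted p = 0.27). The mean sum of the 5 mural markers was 795, 797, 620 and 600 CPM in that order, with a median averaged Oxf fold change of -0.22 and 0 of 5 passing. The 5 atrial markers all had averaged Oxf fold changes below 0 (median -0.78, 0 passing). The 6 liver markers all had values above 0 (median 1.71, 2 passing), at sums of 0.436 to 94.3 CPM over all hearts. Tissue collection times are not in the labels. These measures shifted with gavage themselves, not all of them past the threshold, and their part in the Ackr3 difference was not tested. Mouse numbers also split by gavage, 901 to 920 for vehicle and 921 to 940 for Oxf, so gavage and mouse order cannot be told apart. In sham-vehicle the lowest clock score was in mouse 901 (0.84) and the highest in mouse 909 (3.97).

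Cxcr4 (ENSMUSG00000045382, chromosome 1, 128588199 to 128592293) was lower on average in CKD in both gavage settings without passing the adjusted threshold. It ranged in sham-vehicle from 3.84 to 7.60 CPM with a median of 5.59. The CKD-vehicle hearts had 3.05, 4.17, 5.40, 3.95, 3.29 and 3.45 CPM, the sham-Oxf hearts 5.98, 9.03, 4.03, 4.76 and 4.69 CPM, and the CKD-Oxf hearts 3.56, 3.06, 3.63, 4.79, 2.40, 3.96 and 5.39 CPM. Sham and CKD values overlapped in each setting, and sham-Oxf replicate 2 was the highest of all 28 hearts. Group means were 5.55 ± 1.13, 3.89 ± 0.85, 5.69 ± 1.99 and 3.83 ± 1.01 CPM (SD, n = 10, 6, 5 and 7).

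The Cxcr4 log2 fold change for CKD against sham was -0.52 ± 0.19 under vehicle (unadjusted p = 0.0119, edgeR adjusted p = 0.95) and -0.57 ± 0.21 with Oxf (unadjusted p = 0.0117, adjusted p = 0.42). Averaged over gavage it was -0.54 ± 0.14, the smallest p of the 50 members in that comparison (0.00069), with an edgeR adjusted p of 0.23. The averaged value ran from -0.63 to -0.43 over all 39 alternatives. With Oxf as the contrast Cxcr4 had 0.01 ± 0.14. Sham-Oxf replicate 2 also had the highest lymphocyte marker sums, and with the lymphocyte score as a covariate the averaged surgery value was -0.53 ± 0.14.

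Cxcl12 (ENSMUSG00000061353, chromosome 6, 117168535 to 117181367) ranged from 133 to 251 CPM in sham-vehicle with a median of 183. The CKD-vehicle hearts had 119, 196, 197, 194, 110 and 151 CPM, the sham-Oxf hearts 249, 163, 176, 267 and 184 CPM, and the CKD-Oxf hearts 166, 83.7, 159, 163, 176, 124 and 139 CPM. All sham-Oxf hearts but the lowest lay above the highest CKD-Oxf heart, 1 of them by under 1 CPM, and the vehicle groups overlapped over most of their range. The log2 fold change for CKD against sham was -0.53 ± 0.20 with Oxf (edgeR adjusted p = 0.42), -0.21 ± 0.18 under vehicle (adjusted p = 0.95) and -0.37 ± 0.13 averaged (adjusted p = 0.34). Without sham-Oxf replicate 1 the value with Oxf was -0.45 (adjusted p = 0.71).

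**Figure D3:**
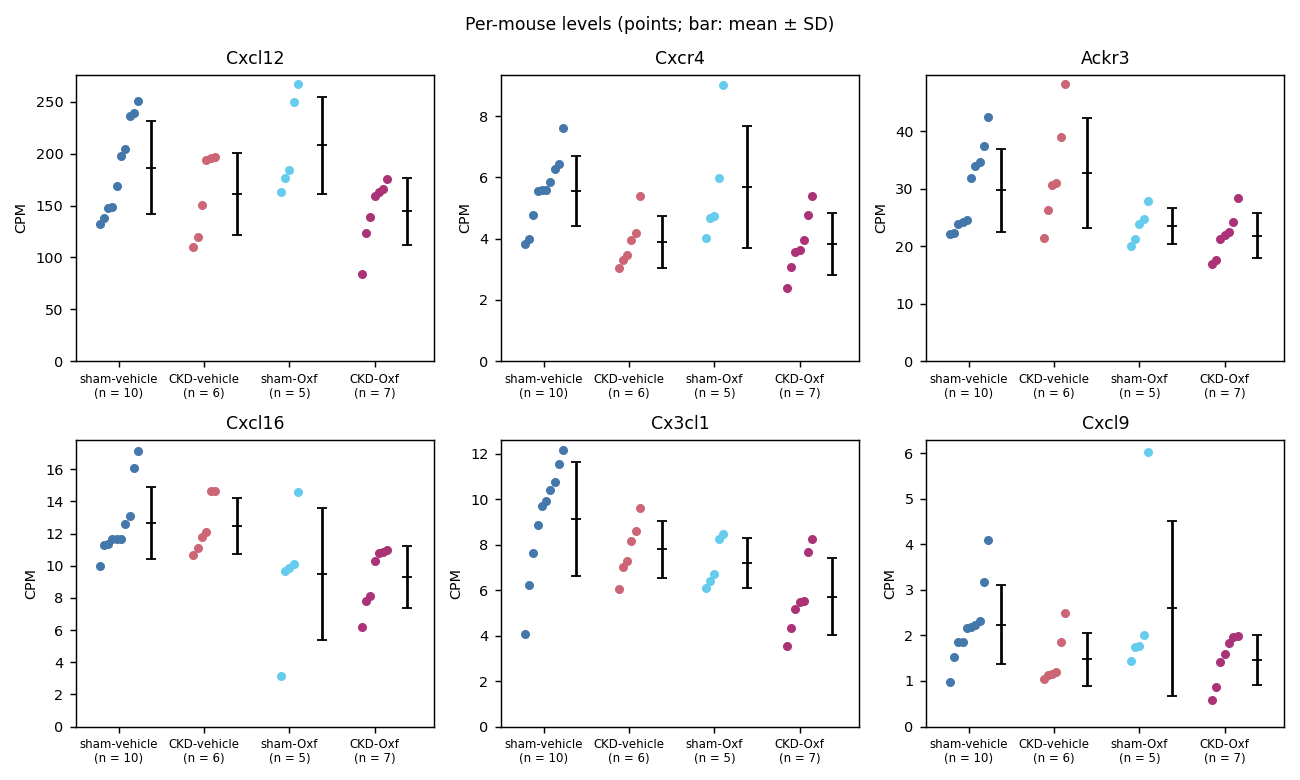
CPM of Cxcl12, Cxcr4, Ackr3, Cxcl16, Cx3cl1 and Cxcl9 in each of the 28 hearts (points), with the mean ± SD of each group as a bar. All Oxf hearts lie at 28.4 CPM or below for Ackr3, the Cxcr4 means are 5.55 and 5.69 in the sham groups against 3.89 and 3.83 CPM in the CKD groups, and single hearts stand out for Cxcl16 (3.13 CPM) and Cxcl9 (6.02 CPM), both sham-Oxf replicate 1.

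The transmembrane chemokines Cxcl16 and Cx3cl1, which tether Cxcr6- and Cx3cr1-bearing leukocytes to cells that carry them, had lower means with Oxf and did not pass. Cxcl16 (ENSMUSG00000018920) ranged from 9.99 to 17.1 CPM in sham-vehicle and 10.7 to 14.7 CPM in CKD-vehicle. The sham-Oxf hearts had 3.13, 9.68, 14.6, 10.1 and 9.86 CPM, and CKD-Oxf ran from 6.21 to 11 CPM with a median of 10.3. The value of 3.13 was sham-Oxf replicate 1, and the groups overlapped. The averaged Oxf fold change of Cxcl16 was -0.42 ± 0.14 (edgeR adjusted p = 0.0904), and -0.31 ± 0.11 without that library (adjusted p = 0.0785); without sham-Oxf replicate 3 it passed (-0.52, 0.0456). It also passed in DESeq2 (-0.42, adjusted p = 0.0486), in limma voom (-0.33, 0.0169) and without sham-Oxf replicate 1 and CKD-Oxf replicate 4 together (-0.32, 0.0399). With the clock score as a covariate Cxcl16 had -0.28 (adjusted p = 0.87) and with the fibroblast score -0.22 (0.64). Cxcr6, its receptor on T cells and natural killer T cells, had group means of 3.24, 3.07, 3.47 and 2.88 CPM and an averaged Oxf fold change of 0.00 ± 0.16.

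Cx3cl1 (ENSMUSG00000031778, chromosome 8, 94772009 to 94782427) spanned 4.07 to 12.2 CPM in sham-vehicle hearts (median 9.83) and 6.04 to 9.62 CPM in CKD-vehicle hearts (median 7.73). The sham-Oxf hearts had 8.49, 6.42, 8.27, 6.11 and 6.72 CPM, and CKD-Oxf hearts spanned 3.55 to 8.27 CPM (median 5.50). The groups overlapped. Its averaged Oxf fold change was -0.40 ± 0.15 (edgeR adjusted p = 0.108), and it passed without sham-vehicle replicate 9 (-0.45, 0.0399) or CKD-Oxf replicate 4 (-0.46, 0.0248). It also passed in DESeq2 (-0.40, adjusted p = 0.0497), in limma voom (-0.47, 0.0150) and without sham-Oxf replicate 1 and CKD-Oxf replicate 4 together (-0.48, 0.0248). With the fibroblast score as a covariate it had -0.19 (adjusted p = 0.70). Fitted beside the clock score the direction turned, to 0.19 (adjusted p = 0.90). Cx3cr1 was at 0 in sham-Oxf replicate 1 and at 0.317 to 3.15 CPM elsewhere, and its averaged Oxf fold change was -0.39 ± 0.34 (adjusted p = 0.52), and -0.24 ± 0.25 without that library.

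Over the 14 detected homeostatic ligand genes, Cxcl12, Cxcl16 and Cx3cl1 included, the median log2 fold change was -0.22 for averaged surgery (9 below 0) and -0.13 for averaged Oxf (11 below 0), with 0 passing in either. At an unadjusted p under 0.05, 4 of the 14 were lower with averaged Oxf (Cxcl16, Cx3cl1, Ccl27a and Ccl27b), beside 11.5% of all genes. Ccl21a had group means of 11.3 ± 2.35, 9.25 ± 3.16, 9.53 ± 2.69 and 8.25 ± 2.24 CPM by group in the order used above. The skin-type chemokines Ccl27a and Ccl27b, ligands of Ccr10, had averaged Oxf fold changes of -0.29 ± 0.12 and -0.70 ± 0.27 (edgeR adjusted p = 0.144 and 0.126), and of -0.29 and -0.57 without sham-Oxf replicate 1. Ccl27b in sham alone had -1.07 ± 0.40, and -0.80 without sham-Oxf replicate 1, where it was at 0. Cxcl17, a mucosal chemokine, was low throughout, with group means of 0.30, 0.13, 0.37 and 0.21 CPM, and its averaged surgery fold change was -1.01 ± 0.36 (adjusted p = 0.335). Cxcl14, a ligand of stromal cells, lay between 1.78 and 9.74 CPM with no unadjusted p under 0.05 in any comparison.

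Among the 10 detected inflammatory CC ligands, which draw monocytes, eosinophils and T cells, 0 passed in any comparison. Ccl6, a ligand of Ccr1, was the highest of them per kb (3.11 CPM). It ranged from 3.73 to 10.2 CPM in sham-vehicle and 3.65 to 11.5 CPM in CKD-vehicle. The sham-Oxf hearts had 1.42, 3.47, 6.69, 2.30 and 2.78 CPM, and CKD-Oxf ran from 2.80 to 13.9 CPM. Its fold change for Oxf against vehicle in sham was -0.82 ± 0.37 (edgeR adjusted p = 0.349), and -0.64 without sham-Oxf replicate 1. Ccl2, the main Ccr2 ligand, lay between 0.327 and 1.73 CPM apart from the 0 of that library, and Ccr2 between 1.24 and 7.53 CPM.

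Ccl12, the mouse relative of Ccl2, had the smallest p of the members for Oxf against vehicle in sham, and this value rested on 1 heart. Sham-Oxf replicate 1 had 2.32 CPM, while the other sham-Oxf hearts had 0.135, 0.269, 0.270 and 0.0521 CPM and sham-vehicle ran from 0.0457 to 0.263 CPM. The log2 fold change was 1.69 ± 0.59 with that library (edgeR adjusted p = 0.244) and 0.01 ± 0.52 without it (adjusted p = 0.997). The interaction of Ccl12 went from -2.07 to -0.40 without the same library.

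The interferon-induced ligand genes Cxcl9, Cxcl10 and Cxcl11 had averaged surgery fold changes below 0, with a median of -0.52 and 0 passing. Cxcl11 differed in direction between the gavage settings. These chemokines draw T cells through Cxcr3, but the annotation types Cxcl11 as a polymorphic pseudogene. Its transcript is therefore not read as a working ligand. Cxcl9 had group means of 2.24 ± 0.86, 1.47 ± 0.58, 2.59 ± 1.93 and 1.46 ± 0.55 CPM. Its averaged surgery fold change was -0.71 ± 0.25 (edgeR adjusted p = 0.325), and -0.43 ± 0.21 without sham-Oxf replicate 1, the highest heart with 6.02 CPM. Without it the value for CKD against sham with Oxf went from -0.81 to -0.25. Cxcl11 was low, and its fold change for CKD against sham was -1.83 ± 0.81 under vehicle (adjusted p = 0.95) and 1.05 ± 0.90 with Oxf (adjusted p = 0.85), with an interaction of 2.88 ± 1.21 (unadjusted p = 0.0242, edgeR adjusted p = 1.00). The interaction was 1.81 without CKD-Oxf replicate 6. The value under vehicle was -2.84 without CKD-vehicle replicate 5 and -0.96 with the clock score as a covariate. The summed interferon-response list (10 genes, among them Gbp2 and Isg15) was 296 CPM in CKD-vehicle replicate 4 and 78.9 to 161 CPM in all the others, and that heart had 2.50 CPM of Cxcl9, the highest of the 6 CKD-vehicle hearts, 0.392 of Cxcl10 and 0 counts of Cxcl11.

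The Cxcl10 promoter (chr5:92348840-92349139, strand -, RefSeq, GRCm38.p6) is shown as an example of a member promoter with the NF-kB motif. Its matches, in capitals, begin at positions -159 and -103 from the start.
Cxcl10: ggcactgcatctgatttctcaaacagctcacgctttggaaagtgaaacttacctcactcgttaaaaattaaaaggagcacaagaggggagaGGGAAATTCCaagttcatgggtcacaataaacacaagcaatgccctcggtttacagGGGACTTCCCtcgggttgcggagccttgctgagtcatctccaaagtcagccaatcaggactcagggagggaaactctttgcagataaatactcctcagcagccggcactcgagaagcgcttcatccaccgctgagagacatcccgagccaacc
The NF-kB motif was found on either strand in 4.51% of all promoters and in 10 of 53 member promoters (18.9%), among them those of Cxcl1, Cxcl2 and Cxcl3. This is a count of letters, with no test, and Cxcl1 and Cxcl2 did not pass in any comparison.

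The neutrophil-attracting ligands were scarce. Cxcl1 lay between 0.452 and 4.32 CPM, Cxcl5 and Cxcl2 were lower still per kb (0.240 and 0.073 CPM), and their receptor Cxcr2 had 0.0674 CPM per kb. The neutrophil markers summed to 1.65 to 8.30 CPM over all hearts, against 152 to 228 CPM for the macrophage markers. Cxcl2 had an Oxf fold change in sham of -1.73 ± 0.84 (edgeR adjusted p = 0.395), at levels of 0 to 0.585 CPM, and -1.51 without sham-Oxf replicate 1, where it was at 0.

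Among the receptors of B and T cells, Cxcr5, Ccr6, Ccr7 and Cxcr3 varied widely between hearts of the same group. Not all such receptors did, as the within-group standard deviation of log2 CPM was 0.40 for Cxcr6 and 0.31 for Ccr9. Cxcr5, which leads B cells to Cxcl13, was at 9.59 CPM in sham-Oxf replicate 2, 6.47 and 3.5 CPM in CKD-Oxf replicates 6 and 7, 3.18, 2.84, 2.75 and 2.49 CPM in sham-vehicle replicates 8, 10, 2 and 6, and 2.67 CPM in CKD-vehicle replicate 5. All the other hearts had 1.37 CPM or less. These 8 hearts come from all 4 groups. The same 8 were the highest for Ccr6 and for Ccr7, and also for the summed B-cell markers (5 genes, among them Cd79a and Ms4a1), which ran from 4.06 to 760 CPM. Cxcr3 and Ccl5, a receptor and a ligand of T cells, shared 7 of their 8 highest hearts with the summed T and natural killer cell markers (1.94 to 29.0 CPM). Cxcl13 shared 5 of 8 with the B-cell markers and Ackr1, the receptor of venules and erythroid cells, 7 of 8. The summed adipose markers shared 7 of their 8 highest hearts with Cxcr5, and the lymphatic markers 1 of 8. The part of attached fat or lymphoid tissue in these values was not tested.

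Within groups the standard deviation of log2 CPM was 2.14 for Cxcl13, 2.06 for Cxcr5 and 1.98 for Ccr6, at percentiles 99.9, 99.5 and 98.7 among genes of similar abundance. It was 0.32 for Ackr3, 0.35 for Cxcr4, 0.36 for Cxcl12, 0.30 for Ackr4 and 0.23 for Ccl27a. A difference of the size seen for Cxcr4 is smaller than the error of the one for Cxcr5, whose averaged surgery fold change was -0.75 ± 0.75, and Ccr6 with averaged Oxf had 1.85 ± 0.86 with an edgeR adjusted p of 0.193.

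**Figure D4:**
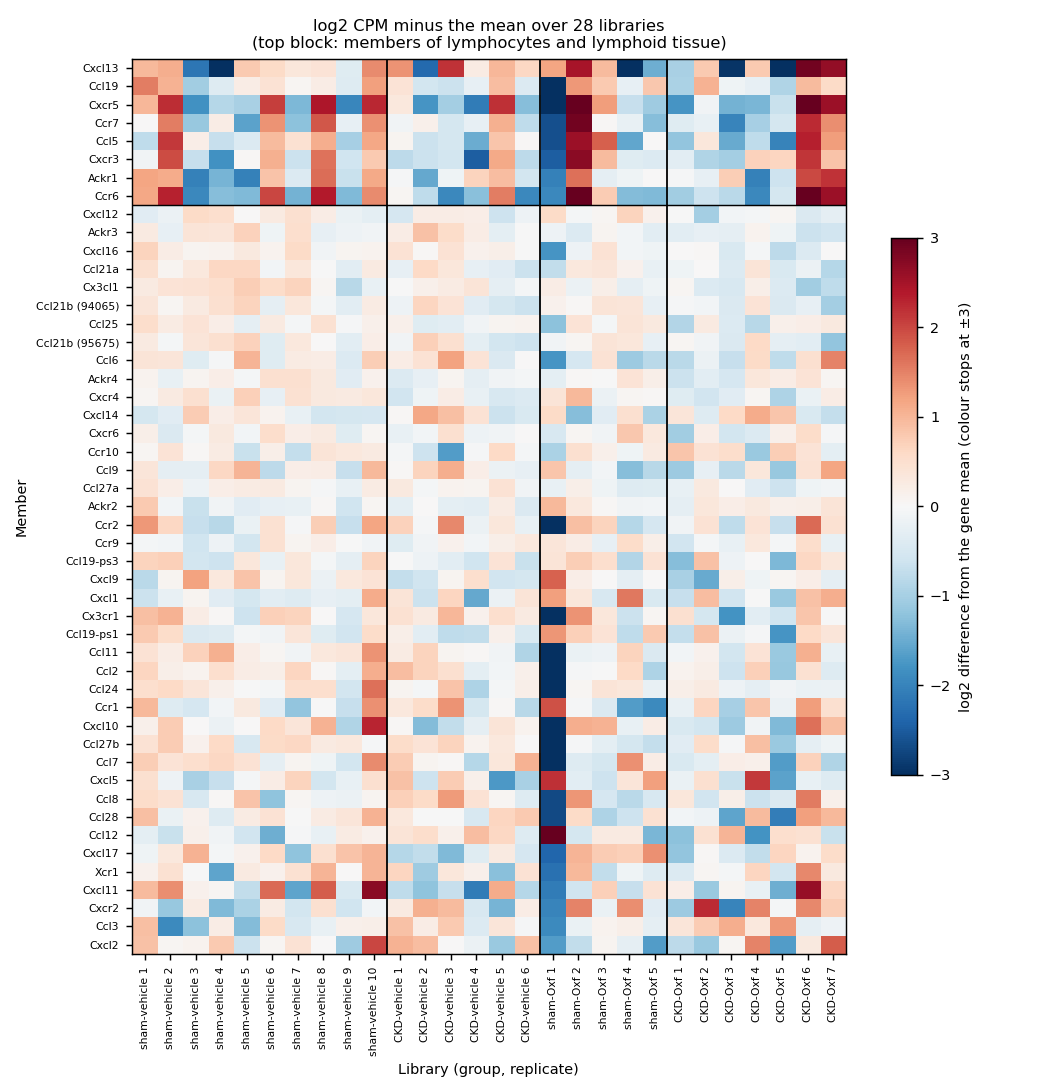
log2 CPM of 49 of the 50 members in each library minus the mean of the gene over 28 libraries, by group, with members of lymphocytes and lymphoid tissue in the top block. The top block is red in the same hearts of different groups (sham-Oxf 2, CKD-Oxf 6 and 7, CKD-vehicle 5, sham-vehicle 2, 6, 8 and 10). Sham-Oxf 1 is dark blue for the members at 0 there.

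The myeloid receptors shared fewer of their highest hearts with their marker sums. Ccr2, of monocytes and recruited macrophages, shared 2 of 8 with the monocyte markers, Cx3cr1 4 of 8 with the macrophage markers, and Cxcr2 4 of 8 with the neutrophil markers. The monocyte sum (32.4 to 65.4 CPM) and the macrophage sum (152 to 228 CPM) spread far less than the B-cell sum (4.06 to 760 CPM). The highest monocyte sum was in sham-Oxf replicate 1, where Ccr2 was at 0. The overlaps are therefore not comparable between cell types. The macrophage sum was nearly level over groups, with medians of 180, 175, 164 and 196 CPM. None of the 7 CC receptors detected passed in a comparison.

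Of the remaining atypical receptors, Ackr2, which removes inflammatory CC chemokines, had group means of 2.16 ± 0.71, 2.04 ± 0.38, 2.80 ± 1.00 and 2.63 ± 0.37 CPM and an averaged Oxf fold change of 0.37 ± 0.16 (edgeR adjusted p = 0.158), opposite in sign to Ackr3, and 0.25 ± 0.14 without sham-Oxf replicate 1. Ackr4 had 0.05 ± 0.13 with Oxf and -0.20 ± 0.13 with surgery (adjusted p = 0.58).

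**Figure D5:**
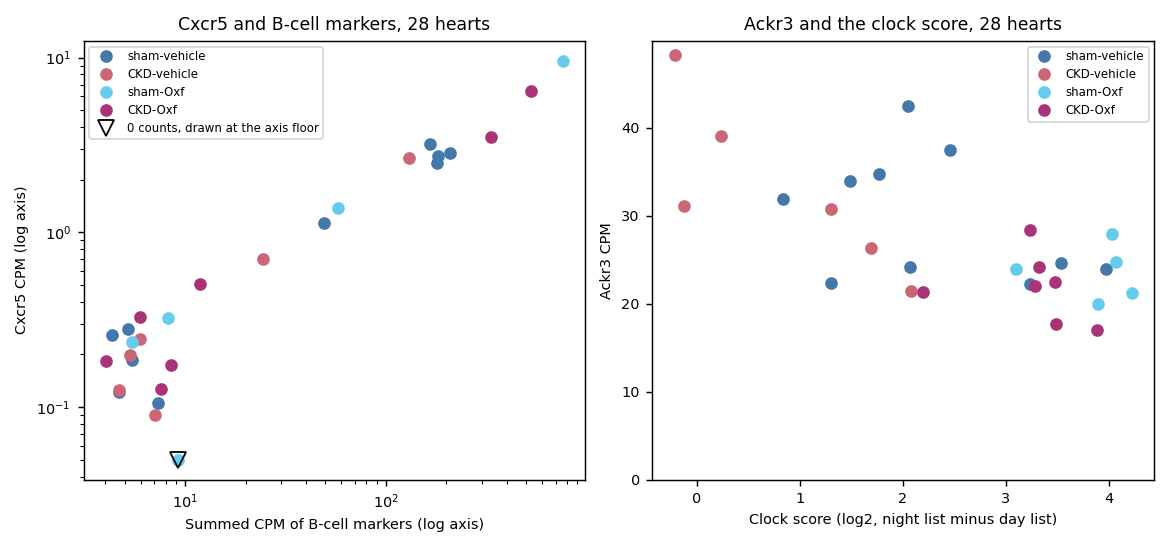
Left, Cxcr5 CPM against the summed CPM of 5 B-cell markers in 28 hearts on log axes, with the heart at 0 counts drawn at the floor; right, Ackr3 CPM against the clock score. The 8 hearts above 2 CPM of Cxcr5 come from 4 groups, and the Oxf hearts all lie at clock scores of 2.19 or more.

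The genes around these members, taken from lists, gave few calls. For chemokine signalling (G protein subunits, phospholipase C, PI3 kinase, Rac and its activators, arrestins, receptor kinases and Rgs genes) 27 genes were tested. With averaged Oxf 1 of the 27 passed, beside 2.81% of all genes called in either direction. This was Pik3cd, the leukocyte PI3 kinase subunit, which rose by 0.90 ± 0.22 (edgeR adjusted p = 0.0341). In the averaged surgery effect 0 passed, beside 0% of all genes. None passed in either averaged effect among 8 relatives and partners (Pf4, Ppbp, Ccrl2, Dpp4, Cmklr1, Rarres2, Mif, Cd74), 13 inducers such as Nfkb1, Tnf and Il1r1, 10 interferon-response genes and 10 adhesion genes such as Icam1, Vcam1 and Selp. The median averaged Oxf fold change was 0.18 for the signalling list and 0.35 for the adhesion list, beside 0.00 for all genes.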

How the data were processed

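The authors deposited raw counts per gene as 1 table, in whole numbers with totals that differ between libraries. Per the submitters' processing notes the tools were STAR 2.6.1d, featureCounts 1.6.3, FastQC 0.11.7 and MultiQC 1.9 with build mm10; annotation, strand and the treatment of multi-mapping reads are not given in the sources used here. Positions and exon lengths are from GENCODE M21 (GRCm38), in which all 64 members were found by identifier. The counts were tested in R 4.3.3 with edgeR 4.0.16: TMM factors, filterByExpr with a minimum count of 10, robust dispersions and the quasi-likelihood F test, in 1 fit of 4 group means over 28 libraries, with 24273 genes tested and Benjamini-Hochberg adjustment over all of them at 0.05. The 7 contrasts were 4 pairwise comparisons, their interaction and 2 averaged effects; the error of a log2 fold change is its size over the root of F. log2 CPM used a prior count of 2. Nothing in the labels states litters or batches, and p-values measure the spread between these mice. Mouse numbers run from 901 to 920 in the vehicle groups and from 921 to 940 in the Oxf groups. Gavage can therefore not be told apart from mouse order.

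Members with full values were those past an adjusted p of 0.05, the 3 smallest p per contrast, the 8 highest per kb and the receptors of these. The members, lists and marker genes were chosen with earlier results of these data known. Values of 1 detected member are not reported here. The fit was run on simulated counts with known changes set in the Oxf groups, and the outcome is not given here. The simulation held no shift of clock or cell types, so it cannot show how such shifts bear on these results. Alternatives were DESeq2 1.42.0 size factors and Wald test, upper quartile scaling, limma 3.58.1 voom with sample weights, other filters, the compared groups only, covariates (clock score, 7SL share and, added after seeing the data, lymphocyte and fibroblast scores), and leaving out libraries. Promoters are from RefSeq (GRCm38.p6).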

Additional observations from a re-analysis of the deposited data

Results flagged for a closer look

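In 10 group-wise checks a single heart was separated from the rest of its group by more than Dixon's 95% limit, out of 80 checks over 20 named genes; chance flags about 1 in 20 groups. The value given is the gap to the nearest heart divided by the whole spread of the group. Sham-Oxf replicate 1 was the highest of its group for Ccl12 (0.904; 2.32 CPM, next 0.270) and Cxcl9 (0.875; 6.02 CPM, next 2.0). Hearts with high lymphocyte markers were the highest for Ccr7, namely sham-Oxf replicate 2 (0.879; 2.23 CPM, next 0.269) and CKD-vehicle replicate 5 (0.656; 0.597 CPM, next 0.292). Cxcl11 was highest in sham-vehicle replicate 10 (0.489; 1.33 CPM), CKD-vehicle replicate 5 (0.799; 0.406 CPM) and CKD-Oxf replicate 6 (0.798; 1.24 CPM), all among the 8 hearts with the most B-cell markers. Sham-vehicle replicate 10 was also the highest of its group for Cxcl2 (0.613; 0.585 CPM, next 0.242). Ccl6 was highest in CKD-Oxf replicate 7 (0.585; 13.9 CPM, next 7.43), and Cxcr6 in CKD-vehicle replicate 3 (0.737; 4.28 CPM, next 3.06).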

How the results depend on the processing

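Among 649 alternative values of the members with the smallest p, 607 kept their direction and their side of the threshold. The direction turned in 4: with the clock score as a covariate Cx3cl1 went to 0.23 (Oxf in CKD) and 0.19 (averaged Oxf), and with limma voom Ccl12 went to -0.42 (Oxf in sham) and 0.091 (interaction). Counts of members called changed as follows. For averaged Oxf (1 in the report) the count was 4 with the DESeq2 Wald test, 7 with limma voom, 4 without sham-Oxf replicate 1 and CKD-Oxf replicate 4 together (chosen after seeing the data), 0 without a filter, and 0 with the clock score, the 7SL share or the fibroblast score as a covariate. For Oxf in CKD (0 in the report) it was 1 with DESeq2, 4 with voom and 1 without those 2 libraries. It was 1 for Oxf in sham with the 7SL share, and 1 with DESeq2 and 2 with voom for averaged surgery, Cxcr4 being called by both (adjusted p of 0.0388 in DESeq2 and 0.0478 in limma). Leaving out each library in turn gave 0 to 1 members for Oxf in CKD, 0 to 3 for averaged Oxf and 0 elsewhere. Neither DESeq2 nor voom called a member for CKD against sham in either gavage setting, for Oxf in sham or for the interaction. The share of all genes called in these fits was not set beside the counts, so they are not read as results about the members. The causes were not tested. Of the 64 members, 23 had at least 10 counts in every library, a limit that sham-Oxf replicate 1 bears on. Some members compared above were under 10 counts in most libraries, so their fold changes are uncertain. At least 10 counts were found in 7 libraries for Cxcl2, 9 for Cxcl11, 9 for Ccr6 and 12 for Ccl12. No paired analysis was possible because the replicate numbers follow the order of the records and pair no mice.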

Other observations

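Over the 3 groups of at least 6 mice, 18 relations within groups between log2 CPM of a member and the clock or fibroblast score were computed, and none passed after Benjamini-Hochberg adjustment (permutation tests, two-sided, exact for n under 10). The strongest for Ackr3 was with the clock score in CKD-vehicle (n = 6), with Pearson r = -0.85 (exact permutation p = 0.025, adjusted 0.198) and Spearman rho = -0.94 (exact permutation p = 0.0167, adjusted 0.214). Without the 2 hearts farthest from the median score r was -0.67. In sham-vehicle (n = 10) Ackr3 had r = -0.40 (permutation p = 0.241; -0.17 without 2 hearts) and in CKD-Oxf (n = 7) r = -0.31 (exact permutation p = 0.47; -0.77 without 2 hearts). Cx3cl1 had r = -0.73 in sham-vehicle (permutation p = 0.021, adjusted 0.198), which was -0.14 without 2 hearts and thus rests on them, and r = -0.74 in CKD-Oxf (exact permutation p = 0.0329, adjusted 0.198; -0.70 without 2 hearts).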
